A study of Mus musculus with 12 samples.

Results

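The genes described here are 39 leukocyte markers, genes whose transcripts mark the blood-derived immune cells that lie in a tissue. They were taken as a named list by cell lineage and are 39 of the 24421 genes measured. The list holds 1 gene of all leukocytes (Ptprc), 11 of monocytes and macrophages, 2 signalling adaptors of myeloid and natural killer (NK) cells, 3 of dendritic cells and 1 of neutrophils. It also holds 7 genes of T cells, 6 of cytotoxic lymphocytes and NK cells, 3 of B cells, 2 of plasma cells and 3 checkpoint receptors of lymphocytes. Their transcripts were read in RNA sequencing of 12 mouse prostate libraries, as FPKM (fragments per kilobase of transcript, scaled to the library's fragments), a level that takes out gene length and so can be compared between genes.

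Leukocytes enter a tissue from the blood along gradients of chemokines, small secreted proteins, and persist there on growth factors such as CSF1 and IL-34, the ligands of the macrophage receptor CSF1R. Macrophages take up dying cells and debris, and dendritic cells carry antigen to T cells. Cytotoxic T and NK cells kill target cells with perforin and granzymes, while plasma cells secrete antibody. Checkpoint receptors such as PD-1, CTLA-4 and LAG-3 are induced on stimulated T cells and restrain them.

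TRAMP mice (strain C57BL/6-Tg(TRAMP)8247Ng/J) carry a transgene in which the probasin promoter, active in prostate epithelium, drives SV40 T antigen, and they develop prostate cancer. Wild type mice were C57BL/6. All mice ate AIN-93M diet, which was either plain (control) or held 0.05% (w/w) phenethyl isothiocyanate (PEITC), an isothiocyanate of cruciferous vegetables. On control diet there were 1 wild type library at 16 weeks of age, 2 wild type libraries at 24 weeks, 2 TRAMP libraries at 16 weeks and 2 at 24 weeks (replicates 0 and 2). On PEITC diet there were 2 TRAMP libraries at each age, and no wild type. These 11 libraries came from ventral and dorsolateral prostate, and a single further library came from a 24-week TRAMP tumor of unknown lobe on control diet. The labels do not say whether replicates were separate animals, so each p-value reflects only how these particular libraries varied, which may be technical variation. RNA was taken from whole tissue, so more cells of a type and more RNA per cell cannot be told apart.

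FPKM summed to 395678 to 467650 per library, and 17113 to 18505 genes were above 0. Depth in reads is unknown, but the steps between low values gave a relative depth of 0.635 to 1, with the 3 wild type libraries at 0.635 to 0.694 and the tumor at 0.699. The prostate label held: summed FPKM of 7 prostate secretory genes was 24507 to 28872 in wild type, 3348 to 7204 in the TRAMP prostates and 2135 in the tumor. Seminal vesicle genes stood out in wild type at 16 weeks, where 7 of them summed to 7816 FPKM against at most 8.016 in any other library. Neutrophil markers, 8 genes with Csf3r of the list among them, summed to 0.0908 to 1.18 FPKM in all prostates and to 5.492 in the tumor. The T cell receptor constant genes Trac, Trbc1, Trbc2 and Trdc were not among the genes measured. Of 23 B and plasma cell markers, 16 were measured, and immunoglobulin constant genes are not analysed here.

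Leukocyte transcripts were a small share of the RNA and a larger one in TRAMP. The 39 genes summed to 105.9 to 142.7 FPKM in the 3 wild type libraries, or 0.0231% to 0.0305% of the library's FPKM. They summed to 173.7 to 535.5 FPKM in the 8 TRAMP prostates, or 0.0425% to 0.132%, and to 437.5 in the tumor. Every TRAMP library was above every wild type library in this sum. The lowest TRAMP sum was replicate 1 at 16 weeks and the highest replicate 2 at 24 weeks, both on control diet. Other cell types moved with the genotype: summed FPKM of 5 smooth muscle genes was 680.4 to 804.4 in wild type and 260.6 to 589.1 in the TRAMP prostates, and that of the secretory genes was lower as given above. Their part in the leukocyte values was not tested. Of the 39 genes, 22 were higher in all 8 TRAMP prostates than in all 3 wild type libraries, and none was lower in all. Among the 29 members that passed a minimum mean of 0.5 FPKM, 19 had all TRAMP prostates above wild type, against 23.0% of all 13375 tested genes, and none had all below, against 21.3%. The 17 with overlap were Mrc1, Cd163, Lyz2, Itgam, Xcr1, Cd3e, Cd4, Foxp3, Gzma, Prf1, Ncr1, Cd79a, Cd79b, Ms4a1, Jchain, Mzb1 and Ctla4.

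**Figure D1:**
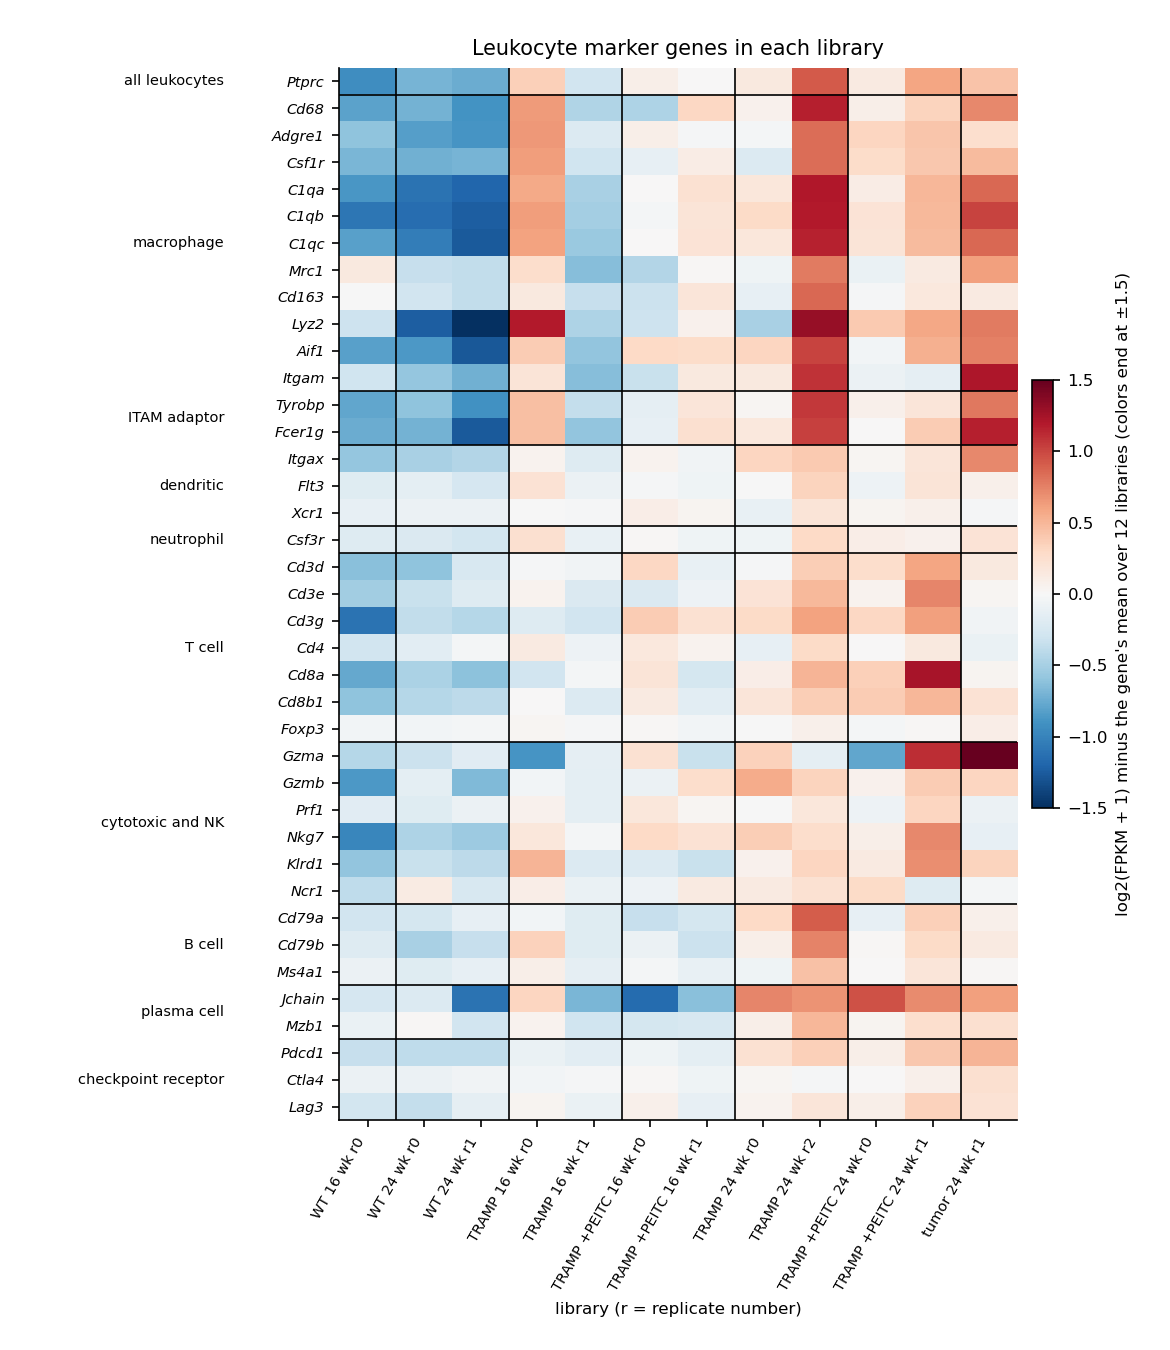
Each row is 1 of the 39 marker genes, grouped by lineage, and each column 1 of the 12 libraries; color gives log2(FPKM + 1) minus the gene's mean over all 12, with colors ending at ±1.5. The 3 wild type columns at the left are mostly blue, and replicate 2 of 24-week TRAMP on control diet is the reddest prostate column for macrophage genes.

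TRAMP was first compared with wild type at 24 weeks on control diet (2 libraries each), by limma on log2(FPKM + 1) with Benjamini-Hochberg adjustment over all tested genes and a threshold of 0.05. Of the 29 tested members, 20 rose and 0 fell; 23.0% of all tested genes rose and 22.0% fell. The members' median log2 difference was 0.85, all 29 estimates were above 0, and the median over all tested genes was -0.00. The calls fell on Ptprc, 8 of 11 macrophage genes, both adaptors, the 1 dendritic gene tested (of 3), 3 of 5 tested T cell genes, 2 of 4 tested cytotoxic and NK genes, 2 of 2 tested B cell genes and 1 of 2 plasma cell genes. Ptprc (chr1:138062861-138175708 in GENCODE M21, build GRCm38) encodes CD45, the surface phosphatase of all leukocytes. Its FPKM was 0.878 in wild type at 16 weeks and 1.20 and 1.14 at 24 weeks. In TRAMP on control diet it was 3.58 and 1.92 at 16 weeks and 2.95 and 5.73 at 24 weeks, and on PEITC diet it was 2.80 and 2.59 at 16 weeks and 2.92 and 4.36 at 24 weeks. The tumor had 3.78. The lowest TRAMP value lay above the highest wild type value, and the replicates of TRAMP on control diet were nearly 2-fold apart at both ages. At 24 weeks Ptprc rose by a log2 difference of 1.25 (SE 0.29, adjusted p = 0.00993, limma).

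The count of 20 depended on single libraries. It was 13 without replicate 0 of wild type, 7 without replicate 1 of wild type, and 9 without replicate 2 of TRAMP, and it was 22 without replicate 0 of TRAMP. Ptprc itself had an adjusted p of 0.0508 without replicate 1 of wild type and 0.0521 without replicate 2 of TRAMP. The 7 members C1qa, C1qb, C1qc, Aif1, Itgax, Cd3g and Cd8b1 remained called in all 12 other settings that tested them. No member fell under any of them.

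Of the monocyte and macrophage genes 8 of 11 rose, with a median of 1.42 over the 11, and the 5 largest differences among the 29 members were theirs. The complement genes C1qa, C1qb and C1qc encode the chains of C1q, which tissue macrophages make, and lie within a short stretch of chromosome 4 (C1qa at chr4:136895917-136898803, with 2.9 kb between C1qa and C1qc and 3.6 kb between C1qc and C1qb). C1qa FPKM was 19.8 in wild type at 16 weeks and 16.5 and 15.7 at 24 weeks. It was 55.3 and 26.1 in TRAMP on control diet at 16 weeks and 41.8 and 86.2 at 24 weeks. On PEITC diet it was 37.1 and 43.4 at 16 weeks and 40.0 and 52.8 at 24 weeks, and in the tumor it was 67.7. Every TRAMP library was above every wild type library, and the 4 control-diet TRAMP libraries held both the lowest and the highest TRAMP value. At 24 weeks the log2 difference was 1.84 (SE 0.39, adjusted p = 0.00667, limma) for C1qa, a 3.57-fold change of FPKM + 1. It was 1.92 (SE 0.38, adjusted p = 0.0047) for C1qb and 1.81 (SE 0.40, adjusted p = 0.00774) for C1qc. The 3 genes kept nearly one ratio in every library: C1qb lay at 81.7% to 107% of C1qa and C1qc at 73.7% to 83.1%.

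RefSeq promoters (build GRCm38.p6) were on hand for 28 of the 39 genes and were searched in the 250 bases before the start site, on both strands, for 2 short motifs: GAGGAAGT, a strong form of the site of PU.1, the Spi1 product that directs myeloid genes, and TGTGGT, the core of the site of RUNX factors. The first was found for 1 of the 28, C1qc, and in 2.79% of the 27025 genes with a promoter in the table. The part of the C1qc promoter that lies outside the GENCODE gene is shown because it holds this match, in capitals, 188 bases before the start site and on the strand opposite to the gene (chr4:136893066-136893164, minus strand, 5′ to 3′ on the strand of the gene, so that the match reads ACTTCCTC).
C1qc: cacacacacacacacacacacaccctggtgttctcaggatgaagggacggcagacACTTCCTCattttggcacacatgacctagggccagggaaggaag
A match describes these letters only, and no binding was measured.

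The other macrophage genes differed in how far they moved. Cd68, a lysosomal protein of macrophages, rose by 1.42 (SE 0.45, adjusted p = 0.0342, limma), and Adgre1, which encodes the surface marker F4/80, rose by 1.26 (SE 0.32, adjusted p = 0.0144). Aif1, the actin-binding protein IBA1, rose by 1.73 (SE 0.36, adjusted p = 0.00576), and Itgam, the integrin CD11b, by 1.26 (SE 0.35, adjusted p = 0.0207). Lyz2, lysozyme of myeloid cells, rose by 1.78 (SE 0.63, adjusted p = 0.0499), just inside the threshold; its near-identical paralog Lyz1 could share reads with it, so its level is uncertain. Csf1r, the receptor of CSF1 and IL-34, had 1.03 (SE 0.36, adjusted p = 0.0503) and did not pass. Without replicate 2 of TRAMP none of Cd68, Adgre1, Lyz2 and Itgam passed, and their differences were smaller, at 0.86, 0.82, 0.88 and 0.79. Without either wild type library none of the 4 passed, but their differences stayed between 1.20 and 1.91. Tyrobp and Fcer1g encode adaptors that carry the ITAM signalling motif for activating receptors of myeloid and NK cells, and they rose by 1.30 (SE 0.35, adjusted p = 0.0189) and 1.58 (SE 0.40, adjusted p = 0.0136). Without replicate 1 of wild type they had 1.15 (adjusted p = 0.0999) and 1.30 (adjusted p = 0.087), and without replicate 2 of TRAMP 0.78 (adjusted p = 0.0918) and 1.15 (adjusted p = 0.0783).

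Mrc1, the mannose receptor, and Cd163, a scavenger receptor for haemoglobin, both mark many resident tissue macrophages and did not pass the test, with 0.71 (SE 0.35, adjusted p = 0.128) and 0.70 (SE 0.33, adjusted p = 0.117). Mrc1 FPKM was 4.85 in wild type at 16 weeks and 3.14 and 3.10 at 24 weeks. In the 8 TRAMP prostates it ran from 2.39 to 8.05, and it was 7.10 in the tumor, so the groups overlapped. Set against C1qa in the same library, Mrc1 separated the genotypes: it stood at 19% to 24.6% of C1qa in wild type, 7.82% to 10% in the TRAMP prostates and 10.5% in the tumor. Ly6c2, a gene of inflammatory monocytes that is no member of the list, went the other way, at 0.36% to 2.49% of C1qa in wild type and 4.05% to 13% in TRAMP; its paralog Ly6c1 could share reads with it. Of 24 such ratios computed, 3 had all TRAMP prostates below wild type, 1 had all above, and 20 overlapped, among them Csf1r, Adgre1, Cd68, Aif1 and Cd163 relative to C1qa. Ccr2, a monocyte gene, was among the overlaps, at 2.16% to 3.47% of C1qa in wild type and 3.28% to 7.71% in the TRAMP prostates. These ratios were looked at after the values were seen and carry no test. Lyve1, listed with both macrophage and lymphatic genes, rose by 1.90 (SE 0.45, adjusted p = 0.0109, limma) at 24 weeks on control diet. Over all prostates its FPKM overlapped between the genotypes, at 0.5283 to 1.927 in wild type and 0.5758 to 7.373 in TRAMP.

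**Figure D2:**
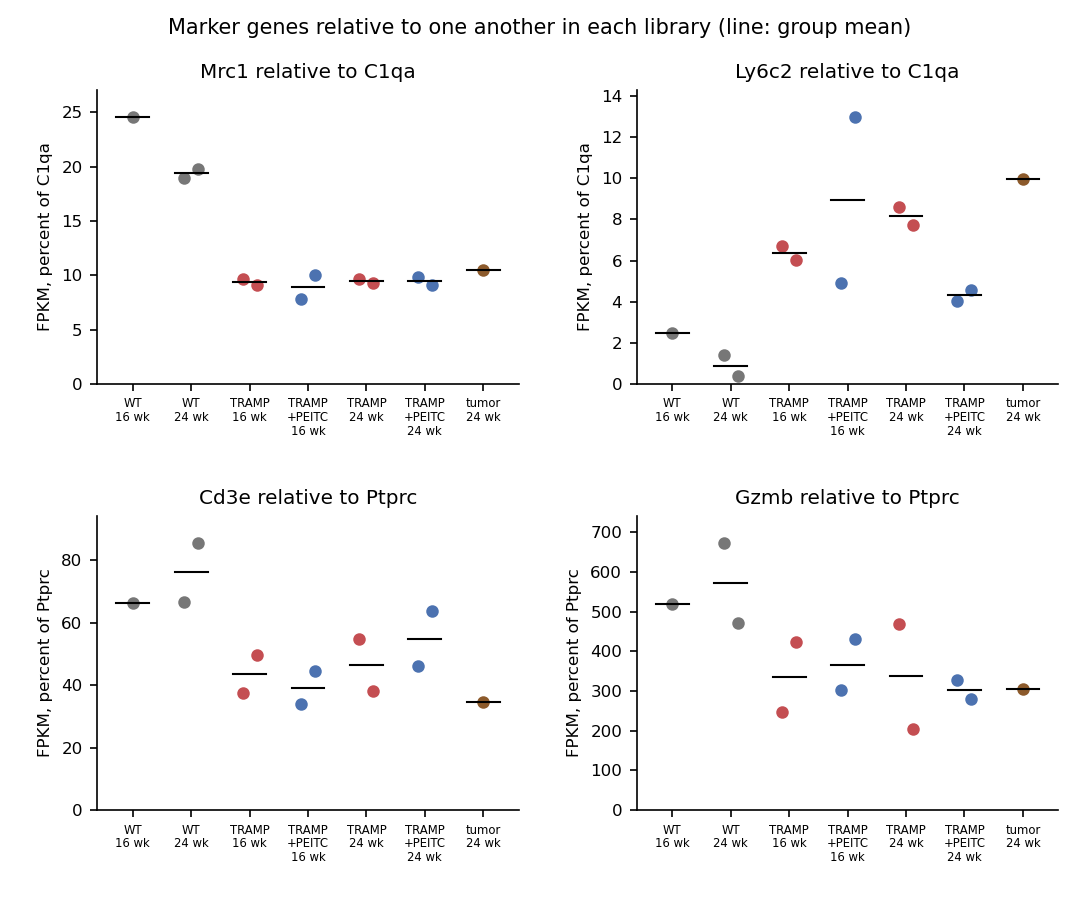
Points are single libraries and lines are group means; the y axes give the FPKM of Mrc1 and Ly6c2 as a percent of C1qa, and of Cd3e and Gzmb as a percent of Ptprc. Mrc1 relative to C1qa lies at 19 and above in the 3 wild type libraries and at 10.5 and below in all 9 others.

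Among dendritic cell genes, Itgax, the integrin CD11c that macrophages also carry, was the only one above the minimum level. Its FPKM was 0.942 in wild type at 16 weeks and 1.07 and 1.14 at 24 weeks, and in TRAMP on control diet 2.0 and 1.53 at 16 weeks and 2.61 and 2.81 at 24 weeks. On PEITC diet it was 2.0 and 1.80 at 16 weeks and 1.96 and 2.28 at 24 weeks, and the tumor had the highest value, 3.78. The replicates lay close together and no TRAMP library reached down to wild type. At 24 weeks Itgax rose by 0.82 (SE 0.12, adjusted p = 0.00119, limma), the smallest adjusted p of the 29. Flt3, the receptor that dendritic precursors need, and Xcr1, a chemokine receptor of cross-presenting dendritic cells, were under the minimum, as was Csf3r, the receptor of the neutrophil growth factor G-CSF. For 15 low members the values could be read as whole fragments, the smallest whole numbers that fit the steps. Fragments are not scaled for depth, which was 0.635 to 0.694 in wild type and 0.667 to 1 in the TRAMP prostates. They therefore compare the genotypes only roughly, here and below. Flt3 then had 4, 6 and 0 fragments in the 3 wild type libraries and 13 to 55 in the TRAMP prostates, while Xcr1 had 3, 6 and 6 against 6 to 39. Csf3r had 4 to 9 against 20 to 68. Flt3 and Csf3r separated the genotypes without overlap, also in FPKM, and Xcr1 did not. Summed over the 8 neutrophil genes, Csf3r among them, the genotypes overlapped. The sum was 1.18 FPKM in wild type at 16 weeks, 0.0908 and 0.1425 at 24 weeks, and 0.3813 to 0.8862 in the TRAMP prostates.

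Of the T cell genes 3 of the 5 tested rose at 24 weeks, and the median of the 5 was 0.68. Whether this differs from the macrophage median was not tested. Cd3g, a chain of the CD3 complex that signals for the T cell receptor, had an FPKM of 1.06 in wild type at 16 weeks and 2.42 and 2.29 at 24 weeks. In TRAMP it was 2.87 and 2.63 at 16 weeks and 4.40 and 5.74 at 24 weeks on control diet, 4.77 and 4.19 at 16 weeks and 4.52 and 5.81 at 24 weeks on PEITC diet, and 3.28 in the tumor. The 24-week TRAMP libraries were clear of wild type by more than the gap between replicates. Cd3g rose by 0.85 (SE 0.14, adjusted p = 0.00244, limma). Cd3d and Cd3e, the other CD3 chains of the same chromosome 9 cluster, had 0.60 (SE 0.21, adjusted p = 0.052) and 0.61 (SE 0.23, adjusted p = 0.0569) and missed the threshold. Relative to Ptprc, Cd3e stood at 66.4% to 85.5% in wild type and 33.9% to 63.7% in the TRAMP prostates, with 34.6% in the tumor. Cd3g relative to Ptprc overlapped, at 121% to 202% in wild type and 80.3% to 170% in the TRAMP prostates. Cd8a did so too, at 21.5% to 37.9% in wild type and 18.4% to 86.2% in the TRAMP prostates. Cd28, a T cell marker outside the list and under the minimum level, went the other way. It was at 0.6381 to 1.163 FPKM in wild type and 0.2974 to 0.4564 in the TRAMP prostates. Cd2, Lck, Thy1 and Il2ra, also outside the list, rose by 0.42 to 1.16 at 24 weeks on control diet.

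Cd8a and Cd8b1 encode the 2 chains of CD8, the coreceptor of cytotoxic T cells. Cd8a FPKM was 0.189 in wild type at 16 weeks and 0.455 and 0.317 at 24 weeks. It was 0.658 and 0.983 in TRAMP on control diet at 16 weeks, 1.17 and 1.89 at 24 weeks, 1.30 and 0.679 on PEITC diet at 16 weeks, and 1.58 and 3.76 on PEITC diet at 24 weeks. The tumor had 1.09. All TRAMP values exceeded all wild type values, and replicate 1 of PEITC at 24 weeks was above every other library. Cd8a rose by 0.85 (SE 0.30, adjusted p = 0.0471, limma) and Cd8b1 by 0.68 (SE 0.15, adjusted p = 0.00684); leaving out any single 24-week library of either group ended the call of Cd8a. Cd4, the coreceptor of helper T cells and of some myeloid cells, had 3 to 17 fragments in wild type and 17 to 52 in TRAMP, and Foxp3, the factor of regulatory T cells, 0 to 1 and 0 to 10. Neither separated the genotypes, and Foxp3 was at the limit of detection.

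The cytotoxic and NK genes split. Gzmb, the serine protease granzyme B, had an FPKM of 4.56 in wild type at 16 weeks and 8.07 and 5.35 at 24 weeks. In TRAMP it was 8.8 and 8.12 at 16 weeks and 13.8 and 11.7 at 24 weeks on control diet, 8.45 and 11.1 at 16 weeks and 9.55 and 12.1 at 24 weeks on PEITC diet, and 11.5 in the tumor. The highest wild type value (8.07) lay just below the lowest TRAMP value (8.12), so the genotypes were separate by a small margin. Gzmb rose by 0.85 (SE 0.20, adjusted p = 0.00973, limma) and Nkg7, a granule protein of NK and cytotoxic T cells, by 0.82 (SE 0.19, adjusted p = 0.00953). Both lost the call without replicate 1 of wild type (adjusted p = 0.0586 and 0.0534), and Gzmb also without replicate 0 of TRAMP (0.053). Klrd1, the NK receptor chain CD94, had 0.56 (SE 0.26, adjusted p = 0.114) and Gzma, granzyme A, 0.35 (SE 0.55, adjusted p = 0.631). Gzma followed no group: its FPKM was 0.953 to 1.33 in wild type, 0.423 to 4.66 in the TRAMP prostates and 6.42 in the tumor. Prf1, which encodes perforin, had 6 to 10 fragments in wild type and 10 to 37 in TRAMP, and Ncr1, the NK receptor NKp46, had 3 to 18 and 11 to 33. Per length, Gzmb in wild type was at 4.56 to 8.07 FPKM and Prf1 at 0.134 to 0.219. Relative to Ptprc, Gzmb stood at 470% to 673% of Ptprc there and 204% to 469% of it in TRAMP, so the ranges nearly met. Nkg7 relative to Ptprc overlapped, at 172% to 217% in wild type and 86.3% to 199% in the TRAMP prostates.

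The RUNX core TGTGGT was found within 250 bases before the start site of 7 of the 28 members with a promoter, against 15.9% of all genes in the table, and the search with its reverse ACCACA covers both strands. The 7 were C1qc, Lyz2 and all 5 cytotoxic and NK genes on hand: Gzma, Gzmb, Prf1, Nkg7 and Ncr1. Of the 5 T cell genes on hand none held it. The promoters of 4 of the 5 are shown because the motif was found in each promoter of this lineage, with the match in capitals, 5′ to 3′ on the strand of the gene and without bases that lie inside the GENCODE gene. They are Gzma (chr13:113100982-113101231, minus strand), Gzmb (chr14:56262335-56262584, minus), Prf1 (chr10:61297586-61297832, plus) and Nkg7 (chr7:43436888-43437072, plus).
Gzma: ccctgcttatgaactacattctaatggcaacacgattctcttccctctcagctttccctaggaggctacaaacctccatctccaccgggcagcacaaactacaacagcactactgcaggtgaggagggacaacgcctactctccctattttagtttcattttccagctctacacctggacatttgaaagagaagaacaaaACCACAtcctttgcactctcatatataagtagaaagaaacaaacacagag
Gzmb: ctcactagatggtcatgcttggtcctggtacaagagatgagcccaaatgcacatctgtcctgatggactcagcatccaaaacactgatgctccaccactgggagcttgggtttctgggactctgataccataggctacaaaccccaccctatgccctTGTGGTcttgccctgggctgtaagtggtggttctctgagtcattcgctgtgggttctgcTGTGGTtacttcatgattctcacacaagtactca
Prf1: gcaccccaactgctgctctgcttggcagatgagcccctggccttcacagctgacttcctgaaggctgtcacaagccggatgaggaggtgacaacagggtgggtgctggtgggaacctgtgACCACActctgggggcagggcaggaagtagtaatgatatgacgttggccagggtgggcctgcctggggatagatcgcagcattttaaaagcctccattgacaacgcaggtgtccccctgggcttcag
Nkg7: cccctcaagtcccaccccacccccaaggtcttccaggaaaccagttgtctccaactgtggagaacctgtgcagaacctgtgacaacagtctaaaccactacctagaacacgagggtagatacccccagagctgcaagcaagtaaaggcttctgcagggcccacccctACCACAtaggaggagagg
The match stood 45 bases before the start site in Gzma, 29 and 88 in Gzmb, 125 in Prf1 and 78 in Nkg7. Gzmb and Nkg7 rose in TRAMP and Gzma did not pass, so genes with and without a call shared the motif.

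B cell and plasma cell genes were near the floor except Jchain. Cd79a and Cd79b, the signalling chains of the B cell receptor, had 6 to 11 and 3 to 9 fragments in wild type and 36 and 73, and 25 and 59, in the 24-week TRAMP libraries on control diet. They rose by 0.80 (SE 0.23, adjusted p = 0.022, limma) and 0.83 (SE 0.26, adjusted p = 0.0303), and the larger value of each was replicate 2, without which both differences were 0.50 (adjusted p = 0.118 and 0.165). Leaving out either wild type library also ended both calls. Ms4a1, the B cell antigen CD20, had 0 to 3 fragments in wild type and 2 to 34 in TRAMP. Jchain, the chain that joins polymeric antibodies, had an FPKM of 5.43 in wild type at 16 weeks and 5.61 and 2.55 at 24 weeks. It was 8.56 and 3.76 in TRAMP on control diet at 16 weeks and 11.7 and 11.2 at 24 weeks, 2.43 and 3.94 on PEITC diet at 16 weeks and 13.9 and 11.5 at 24 weeks, and 10.7 in the tumor. All 24-week TRAMP values were above all other prostates, whereas 16-week TRAMP and wild type overlapped. Jchain rose by 1.36 (SE 0.38, adjusted p = 0.0203, limma) at 24 weeks. It was 1.33 (adjusted p = 0.0715) without replicate 0 of TRAMP and 1.39 (adjusted p = 0.0649) without replicate 2, about as large though no longer past the threshold, and 0.91 (adjusted p = 0.126) without replicate 1 of wild type. Mzb1, a chaperone of antibody assembly, had 0.43 (SE 0.19, adjusted p = 0.1). Of the plasma cell markers outside the list, Derl3 was at 29.25 to 109.4 FPKM and Sdc1 at 14.49 to 77.31, and they went opposite ways, Derl3 with -0.72 (adjusted p = 0.0356) and Sdc1 with 0.82 (adjusted p = 0.000456). Sdc1 is also an epithelial gene, and their part in the result was not tested.

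The checkpoint receptors were low. Lag3 had an FPKM of 0.435 to 0.675 in wild type, 0.695 to 1.33 in the TRAMP prostates and 1.14 in the tumor, and its log2 difference at 24 weeks was 0.36 (SE 0.15, adjusted p = 0.077, limma). Pdcd1, which encodes PD-1, had 1, 0 and 0 fragments in the 3 wild type libraries. In TRAMP it had 12 and 9 at 16 weeks and 32 and 39 at 24 weeks on control diet, 10 and 9 at 16 weeks and 22 and 41 at 24 weeks on PEITC diet, and 37 in the tumor. Wild type was at or near 0 and all 4 24-week prostates exceeded all 4 at 16 weeks. In a fit with no minimum level, in which 14.2% of 20788 genes rose, Pdcd1 rose by 0.67 on the log2(FPKM + 1) scale (SE 0.10, adjusted p = 0.00435, limma). Ctla4 had 0 to 1 fragments in wild type, 1 to 7 in the TRAMP prostates and 11 in the tumor.

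**Figure D3:**
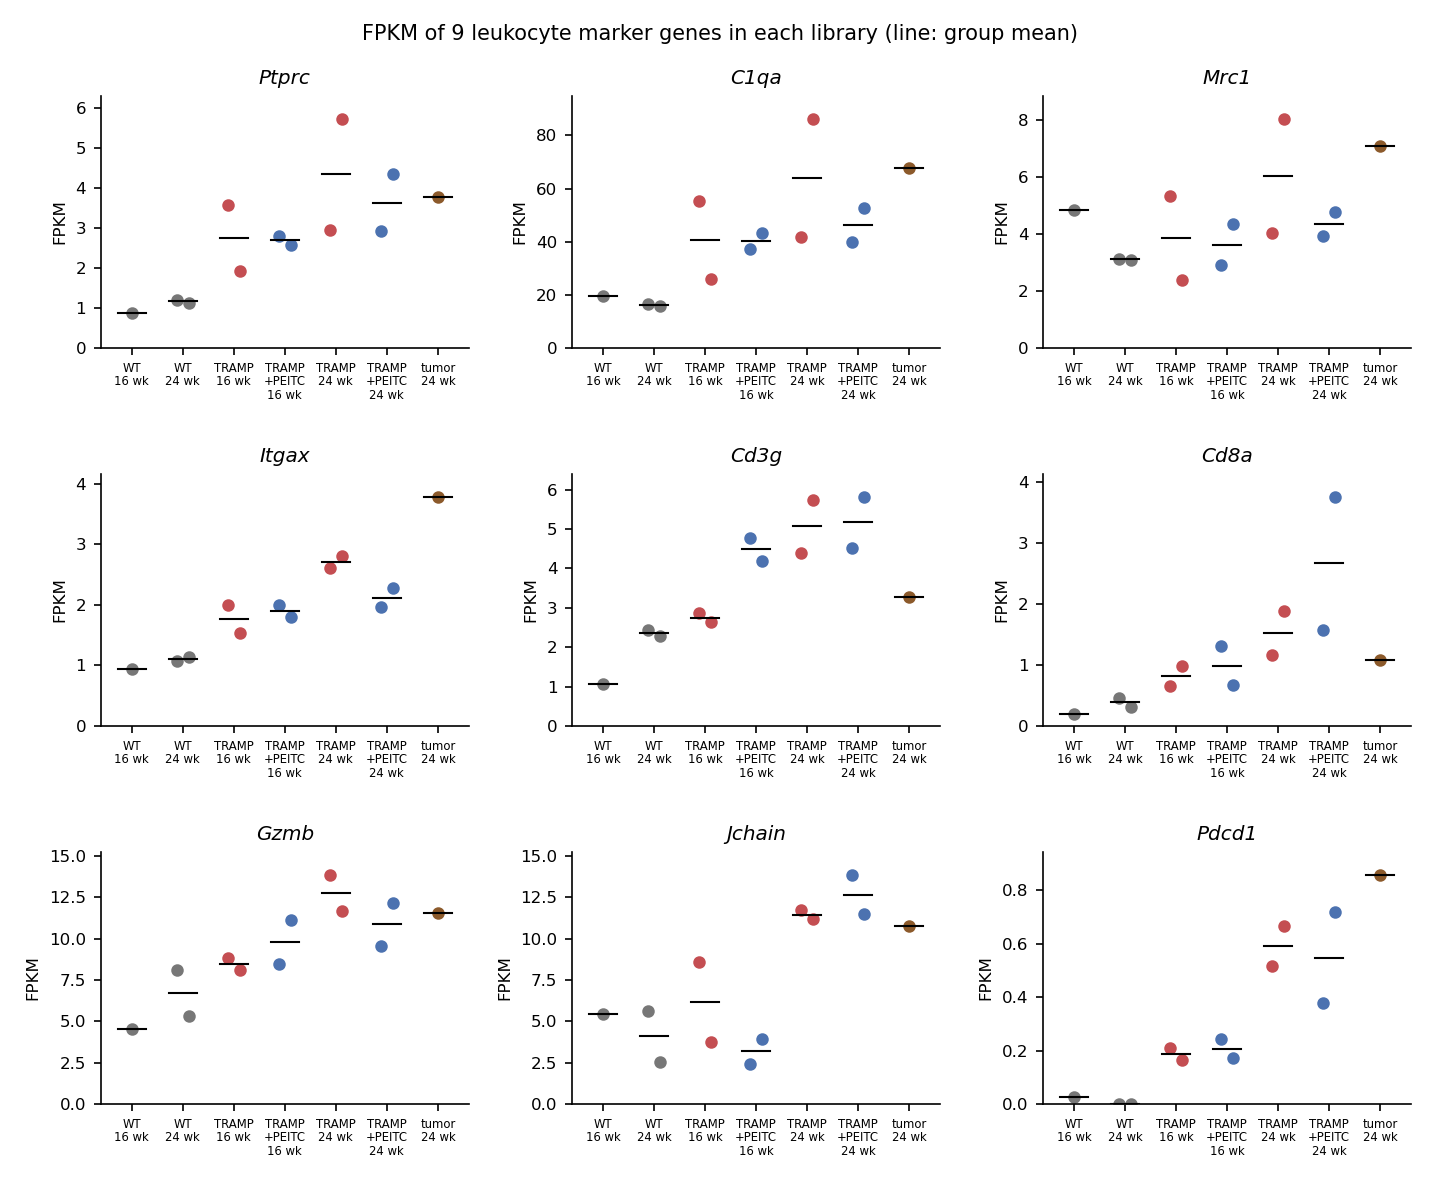
FPKM of 9 marker genes, with 1 point per library and a line at each group mean; the x axis gives the 7 groups. C1qa, Itgax, Cd8a and Pdcd1 are lowest in the 3 wild type libraries, Mrc1 is not, and Jchain is high in the 24-week TRAMP groups, where it runs from 11.2 to 13.9.

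At 16 weeks (2 TRAMP libraries against 1 wild type library, which is assumed to vary like the replicated groups) 4 of the 29 tested members rose and none fell; 18.1% of all tested genes rose and 15.4% fell. The 4 were Cd3g with 0.86 (SE 0.18, adjusted p = 0.00796, limma), Nkg7 with 1.04 (SE 0.23, adjusted p = 0.0112), Itgax with 0.51 (SE 0.15, adjusted p = 0.0319) and Gzmb with 0.77 (SE 0.24, adjusted p = 0.0428). Cd8b1 had 0.50 (SE 0.18, adjusted p = 0.0619). Ptprc had 0.96 (SE 0.36, adjusted p = 0.0712), and none of the 11 macrophage genes passed, although their median was 0.83 and C1qb reached 1.14 (SE 0.46, adjusted p = 0.093). The share of members called was no larger than that of all genes. The count was 2 without replicate 0 of TRAMP and 8 without replicate 1. The seminal vesicle transcripts of the wild type library moved with this comparison, and their part in it was not tested. With the 24-week wild type libraries as the control 6 members rose, and Cd3g (0.16, adjusted p = 0.405) and Gzmb (0.32, adjusted p = 0.23) were not among them. No member passed a test of whether the TRAMP difference changed between the ages (0 of 29, and 0 at an unadjusted p under 0.05; 0.366% of all tested genes passed). The smallest p values there were those of Jchain with 1.29 (SE 0.59, adjusted p = 0.336), Itgam with 1.19 (SE 0.55, adjusted p = 0.343), Mrc1 with 1.05 (SE 0.55, adjusted p = 0.381), Aif1 with 1.02 (SE 0.56, adjusted p = 0.403) and Cd79a with 0.62 (SE 0.36, adjusted p = 0.42). Ptprc had 0.29 (SE 0.46, adjusted p = 0.764).

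TRAMP mice fed PEITC were compared with the same 24-week wild type libraries, so this comparison shares its controls with the first. Of the 29, 20 rose and none fell, with a median of 0.87; 22.8% of all tested genes rose and 22.7% fell. The values beside those on control diet were 1.08 (SE 0.29, adjusted p = 0.0177, limma) for Ptprc against 1.25, and 1.46 (SE 0.39, adjusted p = 0.0172) for C1qa against 1.84. They were 1.34 (SE 0.30, adjusted p = 0.00759) for Cd8a against 0.85, and 1.49 (SE 0.38, adjusted p = 0.0135) for Jchain against 1.36. All 5 tested T cell genes passed, including Cd3d with 0.85 (SE 0.21, adjusted p = 0.0135) and Cd3e with 0.66 (SE 0.23, adjusted p = 0.0442). Without replicate 1 of PEITC, Cd3e had 0.31 (adjusted p = 0.252) and Cd3d 0.68 (adjusted p = 0.0875). Gzmb, with 0.63 in this comparison, had 0.38 (adjusted p = 0.182) without replicate 1 of wild type. Csf1r with 1.05 (adjusted p = 0.0464), Klrd1 with 0.79 (adjusted p = 0.038) and Lag3 with 0.46 (adjusted p = 0.0329) also passed. The other 11 called were C1qb, C1qc, Lyz2, Adgre1, Aif1, Fcer1g, Itgax, Cd3g, Cd8b1, Gzmb and Nkg7, with log2 differences from 0.56 for Itgax to 1.86 for Lyz2 and adjusted p between 0.00199 and 0.0421. Itgam (0.54, adjusted p = 0.242), Cd79a (0.31, adjusted p = 0.293) and Cd68 (1.01, adjusted p = 0.101) did not pass. The count was 6 without replicate 1 of PEITC, 9 without replicate 0 of wild type and 7 without replicate 1 of wild type, and 5 members, Itgax, Cd3g, Cd8a, Cd8b1 and Nkg7, remained called in all 14 other settings that tested them. With no minimum level, in which 14.3% of genes rose, Pdcd1 rose by 0.62 (SE 0.10, adjusted p = 0.00533). Ctla4 had 0.11 (SE 0.03, adjusted p = 0.0493) on 4 and 7 fragments against 0 and 1.

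**Figure D4:**
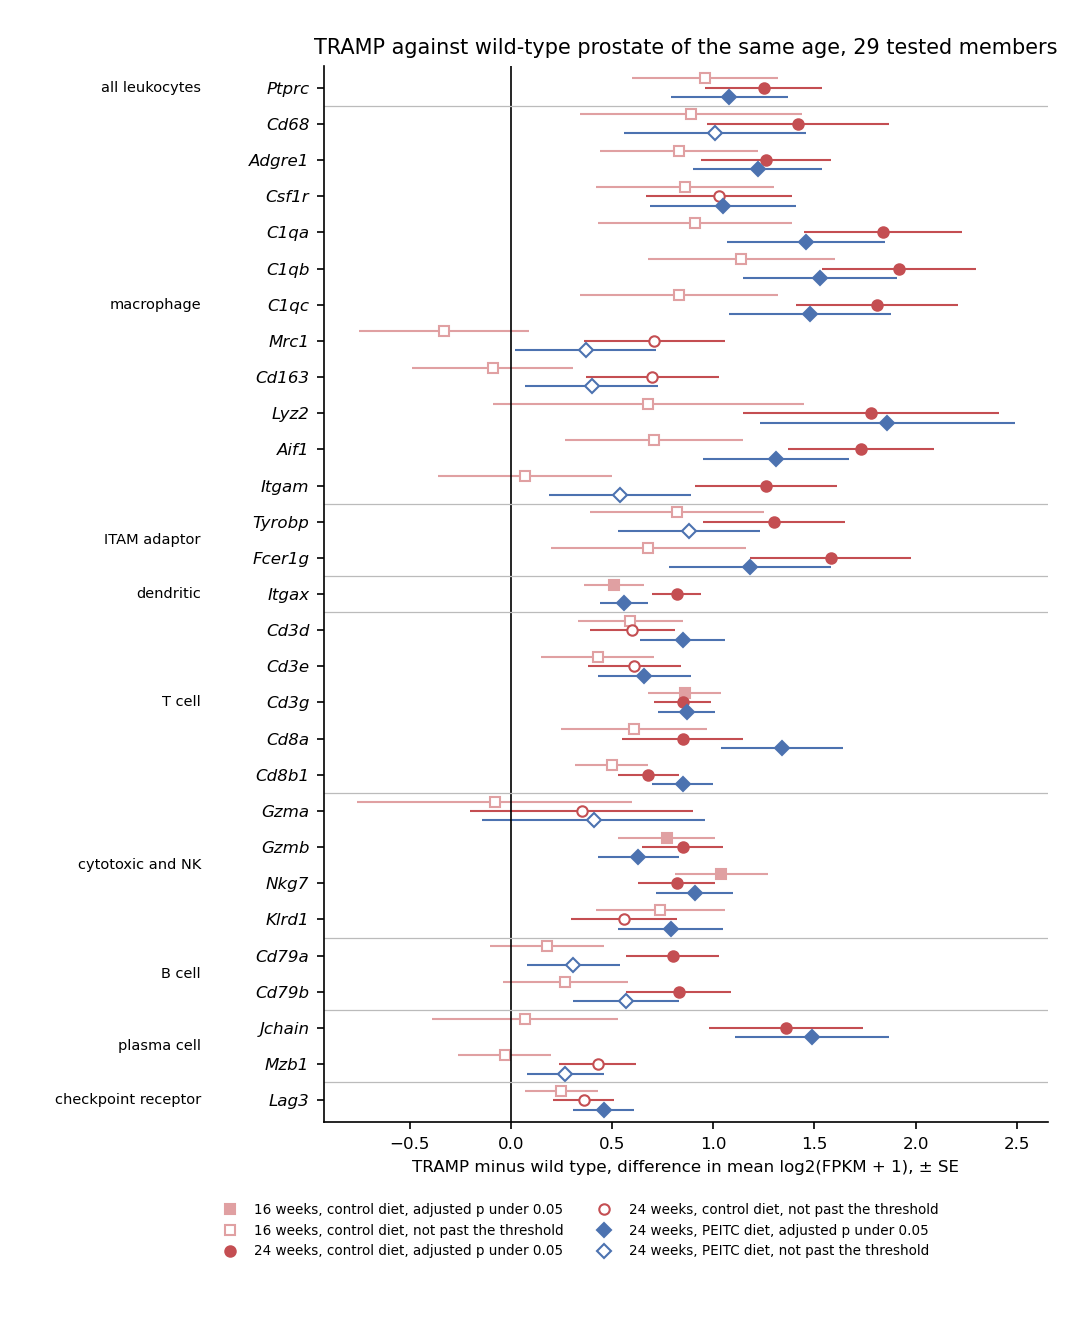
TRAMP minus wild type of the same age for the 29 tested members, as the difference in mean log2(FPKM + 1) with its SE; squares are 16 weeks, circles 24 weeks on control diet and diamonds 24 weeks on PEITC diet, filled where the adjusted p is under 0.05. Filled circles run from 0.68 for Cd8b1 to 1.92 for C1qb, and Mrc1, Cd163, Gzma and Mzb1 are open in all 3.

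PEITC against control diet in TRAMP moved none of the members past the threshold (2 libraries each). At 24 weeks 0 of 29 passed in limma, 0 had an unadjusted p under 0.05, and 0% of all tested genes passed. The smallest p values were those of Cd79a with -0.49 (SE 0.23, adjusted p = 0.547), Itgax with -0.25 (SE 0.12, adjusted p = 0.554), Itgam with -0.72 (SE 0.35, adjusted p = 0.559), Cd8a with 0.49 (SE 0.30, adjusted p = 0.628) and Aif1 with -0.42 (SE 0.36, adjusted p = 0.731). Ptprc had -0.17 (SE 0.29, adjusted p = 0.875). The macrophage genes had a median of -0.34 and 2 of 11 estimates above 0, and the T cell genes a median of 0.17 with 5 of 5 above 0. The diets overlapped for C1qa, at 40.0 and 52.8 FPKM on PEITC and 41.8 and 86.2 on control diet, and for Cd8a, at 1.58 and 3.76 against 1.17 and 1.89. They did not overlap for Itgam, at 1.55 and 1.47 against 1.98 and 4.72, or for Itgax, at 1.96 and 2.28 against 2.61 and 2.81. Nor did they for Cd8b1, at 0.986 and 1.15 against 0.729 and 0.955. The share of all genes without overlap between the diets is not given for either age, so such genes have no background. Without replicate 2 of control diet the Ptprc difference was 0.21.

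At 16 weeks again 0 of 29 passed, 1 had an unadjusted p under 0.05, and 0.00748% of all tested genes passed. That 1 was Cd3g, with 0.55 (SE 0.14, adjusted p = 0.438, limma): both PEITC libraries (4.77 and 4.19) were above both control libraries (2.87 and 2.63). Jchain had -0.71 (SE 0.38, adjusted p = 0.539), Klrd1 -0.42 (SE 0.26, adjusted p = 0.599), Cd79b -0.29 (SE 0.26, adjusted p = 0.717), Aif1 0.39 (SE 0.36, adjusted p = 0.733) and Ptprc 0.01 (SE 0.29, adjusted p = 0.995). As the mean of both ages 0 of 29 passed, 1 had an unadjusted p under 0.05 (Cd3g, 0.28, SE 0.10, adjusted p = 0.735) and 0% of all genes passed. The others with small p were Cd79a -0.34 (SE 0.16), Cd79b -0.28 (SE 0.18), Cd8a 0.30 (SE 0.21) and Cd3d 0.19 (SE 0.15), at adjusted p of 0.735 to 0.796, and Ptprc was at -0.08 (SE 0.21, adjusted p = 0.937). The PEITC difference itself did not change between the ages past the threshold for any member (0 of 29, 1 at an unadjusted p under 0.05, 0.00748% of all genes). In that test the smallest p values were those of Cd3g with -0.52 (SE 0.20, adjusted p = 0.357), Itgax with -0.33 (SE 0.17, adjusted p = 0.447), Klrd1 with 0.65 (SE 0.36, adjusted p = 0.481), Itgam with -0.85 (SE 0.50, adjusted p = 0.496) and Aif1 with -0.81 (SE 0.50, adjusted p = 0.522). Ptprc had -0.19 (SE 0.41, adjusted p = 0.884). These misses do not show that the diets act alike. Even a difference several times its SE did not pass here, as for Cd3g at 16 weeks (0.55, SE 0.14).

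Within TRAMP, members tended to be higher at 24 than at 16 weeks, but none passed. On control diet 0 of 29 passed, beside 0.00748% of all tested genes. All 29 estimates were above 0 with a median of 0.50, and 7 had an unadjusted p under 0.05. The median of all genes and their share at that unadjusted p are not given here, so these values have no background. The smallest p values were those of Cd3g with 0.69 (SE 0.14, adjusted p = 0.178, limma), Itgax with 0.43 (SE 0.12, adjusted p = 0.189), Cd79a with 0.72 (SE 0.23, adjusted p = 0.214), Gzmb with 0.54 (SE 0.20, adjusted p = 0.245) and Cd8b1 with 0.37 (SE 0.15, adjusted p = 0.265). Ptprc had 0.50 (SE 0.29, adjusted p = 0.407). On PEITC diet 0 of 29 passed, 5 had an unadjusted p under 0.05, and 0% of all genes passed; Jchain led with 1.73 (SE 0.38, adjusted p = 0.467). Cd8b1 had 0.46 (SE 0.15, adjusted p = 0.555), Cd8a 0.83 (SE 0.30, adjusted p = 0.575), Klrd1 0.69 (SE 0.26, adjusted p = 0.575), Cd3e 0.54 (SE 0.23, adjusted p = 0.613) and Ptprc 0.31 (SE 0.29, adjusted p = 0.801). Across both diets all 4 24-week prostates were above all 4 16-week prostates for 3 tested members, Cd3e, Cd8b1 and Jchain, and for the untested Pdcd1, against 2.71% of all tested genes. No macrophage gene was among the 4.

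The single tumor was compared with 24-week TRAMP prostate on control diet. The share of all genes at an unadjusted p under 0.05 is not given for it. In limma 0 of 29 members passed, 2 had an unadjusted p under 0.05, and 5.59% of all tested genes rose and 6.17% fell. Cd3g had -0.49 (SE 0.18, adjusted p = 0.113), Itgax 0.37 (SE 0.15, adjusted p = 0.149), Gzma 1.39 (SE 0.68, adjusted p = 0.224), Nkg7 -0.45 (SE 0.23, adjusted p = 0.252), Cd79a -0.54 (SE 0.28, adjusted p = 0.252) and Ptprc -0.11 (SE 0.36, adjusted p = 0.878). All 5 T cell estimates were below 0 and 9 of 11 macrophage estimates above it. Gzma (6.42 FPKM), Itgam (5.28), Fcer1g (34.9) and Itgax (3.78) had their highest value of the 12 libraries in the tumor. So did Pdcd1 (0.858), Ctla4 (0.255) and Foxp3 (0.103), which were under the minimum level. Of T cell markers outside the list, Il2ra (1.809) and Thy1 (10.5) were also highest there. Cd2 (0.7825) was below 24-week TRAMP on control diet (1.011 and 1.931). With no minimum level, in which 4.28% of genes rose, Ctla4 had 0.24 (SE 0.04, adjusted p = 0.027), on 11 fragments in the 1 tumor library against 5 and 3. Its SE comes from the other groups, where the gene is near 0, so this value is given without a call. The neutrophil genes S100a8 (2.055 FPKM) and S100a9 (2.221) were also highest in the tumor, against at most 0.2512 and 0.6578 elsewhere, and 5 endothelial genes summed to 22.13 FPKM there against 3.873 to 11.34. Their part in the tumor values was not tested.

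Replicates of a group differed in their leukocyte genes. The sizes are on the log2(FPKM + 1) scale, which shrinks differences of low genes, and no test compared the lineages. In 16-week TRAMP on control diet all 11 macrophage genes were lower in replicate 1 than in replicate 0, by a median of -0.97 in log2(FPKM + 1). In 24-week TRAMP on control diet all 11 were higher in replicate 2 than in replicate 0, with a median of 0.98. The medians were 0.23 in both PEITC groups and -0.09 in wild type, and the median absolute difference over all tested genes was 0.08 to 0.12 in every group. In the same 2 control-diet TRAMP groups the medians were -0.93 and 0.95 for the 2 adaptors, -0.34 and 0.64 for the 2 tested B cell genes, -0.68 and 0.17 for the 2 plasma cell genes, and -0.09 and 0.32 for the 5 tested T cell genes. The cytotoxic and NK genes had medians of -0.15 and -0.16 there and 0.60 between the PEITC replicates at 24 weeks, where Gzma differed by 1.89 and Cd8a by 0.88. Genes of fibroblasts moved in the same direction as the macrophage genes, with medians of -1.57 and 1.54 over 7 genes in the same 2 groups and summed FPKM of 238.8 and 90.6, and 80.41 and 238.4. In the PEITC groups the fibroblast medians were 0.68 and 0.36. Adipocyte genes had -1.61 and 1.64 over 5 genes in the control-diet TRAMP groups, but also 3.42 in 24-week PEITC and -2.21 in wild type, where the macrophage medians were 0.23 and -0.09. The part of these other cell types in the result was not tested.

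**Figure D5:**
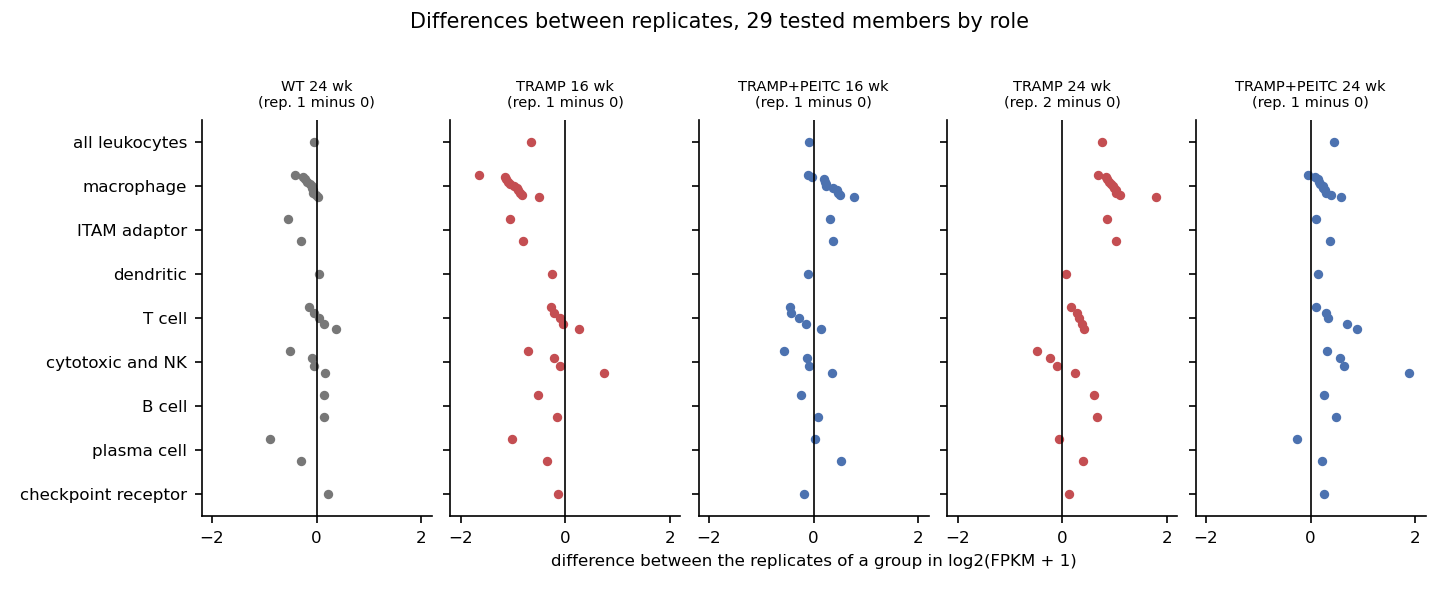
Each point is 1 of the 29 tested members, each row a lineage and each panel a group with 2 libraries; the x axis gives the difference between its replicates in log2(FPKM + 1). Macrophage points lie near -1 in 16-week TRAMP and near 1 in 24-week TRAMP on control diet, where T cell points lie closer to 0.

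Genes that recruit, feed and wire leukocytes were read from 6 further lists for TRAMP against wild type at 24 weeks on control diet. In this comparison 23.0% of all tested genes rose and 22.0% fell. Of the growth factors, 4 of 7 tested rose and none fell: Il34 by 0.85 (SE 0.18, adjusted p = 0.00716, limma), Tnfsf13b, the B cell survival factor BAFF, by 0.67 (SE 0.14, adjusted p = 0.0068), Csf1 by 0.63 (SE 0.18, adjusted p = 0.0229) and Flt3l by 0.42 (SE 0.11, adjusted p = 0.0138). Of 19 tested chemokines 12 rose and 2 fell. The largest rises were those of Ccl8 with 3.44 (SE 0.80, adjusted p = 0.00992) and Cxcl10 with 3.18 (SE 0.51, adjusted p = 0.00185), followed by the monocyte attractant Ccl7 with 2.27 (SE 0.34, adjusted p = 0.00124), Ccl5 with 2.08 (SE 0.24, adjusted p = 0.000344) and the B cell attractant Cxcl13 with 2.08 (SE 0.63, adjusted p = 0.0297). The other 7 that rose, Ccl2, Ccl3, Ccl4, Ccl6, Ccl9, Cxcl9 and Cxcl16, had 0.72 to 1.93. Cxcl15 fell by 2.66 (SE 0.16, adjusted p = 2.15e-05) and Cx3cl1 fell by 0.34 (SE 0.11, adjusted p = 0.0385). Of 7 tested chemokine receptors 5 rose, among them Ccr2 of monocytes with 1.71 (SE 0.50, adjusted p = 0.0251), and Cx3cr1, Cxcr3 and Cxcr6 had 0.86 to 0.93. At 16 weeks no growth factor, receptor or signalling gene was called. Of the 19 tested chemokines 5 rose then, Cxcl10 with 3.77, Ccl5 with 2.67, Cxcl9 with 1.24, Ccl3 with 1.0 and Ccl4 with 0.67. Cxcl15, Ccl20 and Cxcl12 fell. Among all tested genes 18.1% rose and 15.4% fell at 16 weeks.

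Of the ligands of checkpoint and costimulatory receptors, 3 of 5 tested rose at 24 weeks: Lgals9, which encodes galectin-9, with 3.24 (SE 0.32, adjusted p = 0.000174, limma), Cd274, which encodes PD-L1, with 0.59 (SE 0.11, adjusted p = 0.00365), and Pvr with 0.36 (SE 0.09, adjusted p = 0.012). The same 3 rose at 16 weeks, with 1.94, 0.63 and 0.62. Of the signalling genes of leukocytes 10 of 12 rose at 24 weeks, among them the kinase Syk with 1.02 (SE 0.30, adjusted p = 0.027), and none fell. Also among them were Vav1, Lcp2, Lck, Inpp5d, Plcg2, Lat, Zap70 and Lyn, with 0.24 to 0.96. Of the transcription factors 5 of 9 tested rose, among them Ikzf1 with 2.50 (SE 0.15, adjusted p = 2.14e-05), Batf3 with 1.54 (SE 0.27, adjusted p = 0.00296), Spi1 with 1.53 (SE 0.34, adjusted p = 0.00842) and Runx3 with 0.35 (SE 0.11, adjusted p = 0.0309). At 16 weeks 2 of the 9 rose, among them Ikzf1 with 1.97, beside 18.1% of all tested genes. In PEITC-fed TRAMP against the same 24-week wild type libraries, 2 of 7 tested growth factors, 5 of 19 chemokines, 4 of 7 receptors, 4 of 5 ligands, 6 of 12 signalling genes and 5 of 9 factors rose, and 3 chemokines and 1 ligand fell, beside 22.8% of all tested genes that rose and 22.7% that fell. In the single tumor against 24-week TRAMP, Ccl4 of the 19 chemokines had 0.74, Plcg2 of the 12 signalling genes 0.63 and Pvr of the 5 ligands 0.50. No other gene of these lists passed, beside 5.59% of all tested genes that rose and 6.17% that fell. Spi1, which encodes PU.1, was at 5.09 and 2.75 FPKM in 16-week TRAMP on control diet and 4.06 and 9.13 at 24 weeks, the same order of replicates as C1qa. Ikzf1, a lymphoid and myeloid factor, was at 0.517 to 1.04 FPKM in wild type and 6.02 to 8.58 in the TRAMP prostates; it was singled out after its values were seen.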

How the data were processed

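The 12 libraries are RNA sequencing of mouse prostate tissue, grouped by genotype, diet and age as the labels give them. The authors deposited 1 table of FPKM values per library; the submitters' processing notes name HISAT2, Picard, featureCounts, DESeq2 and mm10, without versions or roles, and how reads shared by paralogs were counted is not given in the sources used here. Depth in reads is unknown, and FPKM are not counts, so no count model was used. Values were taken as log2(FPKM + 1), genes with a mean under 0.5 FPKM over all libraries were left out, and limma 3.58.1 (R 4.3.3) was fitted with 1 mean per group over all 12 libraries, an intensity trend and 5 residual degrees of freedom. Groups of 1 library (wild type at 16 weeks, tumor) were assumed to vary like the others. P-values were adjusted over all tested genes by Benjamini-Hochberg, with a threshold of 0.05. Counts of members at an unadjusted p under 0.05 stand without the share of all genes at that level, so they have no background. A fold change on this scale understates the change of low genes. The fit was tested on simulated data.

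Whole fragments were recovered from the steps of low values for 84.0% of the 2452 genes with a mean of 0.05 to 0.3 FPKM (within 0.02 fragments plus 0.3% of the count) and for 0.0% after values were shuffled between genes. Fold changes are named for Ptprc, for the members called in a comparison or, where fewer than 5 were called, for the 5 with the smallest p, and for called genes of the pathway lists, some of which are not reported here; the ratios and any other gene were picked with the values in view. The members and lists were chosen with earlier results of these data known. Alternatives were the pseudocount (0.1 and 5), no minimum or one of 2 FPKM, quantile normalization, scaling without the 50 most abundant genes, no trend, the compared groups alone, the 24-week wild type libraries as control, each replicate left out, and the replicate number as a block. Promoters are RefSeq's and gene positions GENCODE's, both on GRCm38. Plots were made with matplotlib 3.10.9 in Python 3.11.15.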

Additional observations from a re-analysis of the deposited data

How the results depend on the processing

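With 1 library left out at a time, the count of members that rose was 7 to 22 for TRAMP against wild type at 24 weeks (20 with all libraries), 2 to 8 at 16 weeks (4) and 6 to 16 for PEITC-fed TRAMP against wild type (20). It was 13 of 16 tested for the PEITC-fed comparison at a minimum of 2 FPKM, where fewer members were tested. In the tumor 1 member, Ctla4, passed the threshold without a minimum level, on few fragments in 1 library. The other 134 counts computed stayed within 1.5 times those reported. Of single-gene values, 1034 kept direction and side of the threshold, 131 lost and 6 gained the call, and 17 reversed sign, all 17 in comparisons where no member passed; the cause was not tested. Ptprc for PEITC against control diet at 16 weeks was -0.00 with a pseudocount of 5 and -0.05 after quantile normalization. Its change in the TRAMP difference between ages was -0.00 after quantile normalization. With 1 library left out, Ptprc ranged from -0.56 to 0.21 (PEITC, 24 weeks), -0.31 to 0.34 (PEITC, 16 weeks), -0.27 to 0.11 (PEITC, mean of ages), -0.49 to 0.28 (tumor), -0.57 to 0.20 (PEITC between ages) and -0.09 to 0.67 (TRAMP between ages), and Aif1 from -0.10 to 0.87 (PEITC, 16 weeks).

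Replicate numbers are shared by some groups, but deviations of same-numbered libraries correlated at -0.31, 0.24 and -0.18, so the numbers were not taken to pair samples. With the replicate block, 17 members rose in PEITC-fed TRAMP against wild type and 0 passed for PEITC at 16 weeks or for age on PEITC diet. With crossed numbers, an alternative chosen after seeing the data, the counts were 20 and 0. The single wild type library at 16 weeks and the tumor could not be left out, and comparisons sharing fewer than 2 replicate numbers could not be blocked. Relative depth differed 1.57 times between the deepest and shallowest library, and members under 0.5 FPKM rest on few fragments.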
